A study of Rattus norvegicus with 86 samples.

Results

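The genes described here encode proteins of the extracellular matrix, proteins that join cells to each other and to that matrix, and proteins that guide axons. They were the genes of the prelimbic cortex (PL) expression table whose identifier the study's lists of expression quantitative trait loci (eQTL) pair with a name that begins like a collagen, laminin, integrin, cadherin, protocadherin, ADAM or MMP metalloproteinase, TIMP, claudin, semaphorin, plexin, ephrin, Eph receptor, contactin, LRRTM or Slit gene. This gave 62 genes of the 17250 in the table, of which 3292 could be given a name. Every one of them was therefore picked for an association of its RNA level with genotype in some brain region. For 36 it was the list of all cis-eQTLs, of which the part used here held the infralimbic cortex on chromosomes 1 to 7. The study's full list covers each brain region, so the 62 genes are not all that the name rule would take from it. The other 26 had an eQTL in a single region, which was the lateral habenula for 10, the nucleus accumbens core for 10, the orbitofrontal cortex for 2 and PL itself for 4 (*Itga5*, *Pcdh10*, *Mmp2* and *Cntn2*). For those 4 the choice used an eQTL in the PL values analysed here. The study lists these eQTLs as detected in 1 region alone, so the PL values also entered the choice of the rest of the 26. No laminin alpha or gamma chain and no TIMP gene was among the 62.

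RNA-Seq had been done on PL dissected from both hemispheres of heterogeneous stock (HS) rats, an outbred population descended from inbred strains. The rats were adult, group housed and naive to drugs and behavioural tests, and the kept libraries came from 40 males and 40 females. The labels put the rats into rat batches, with 14 rats in batch 2 (3 females and 11 males), 23 in batch 3 (13 and 10), 26 in batch 4 (15 and 11), 1 female in batch 5 and 16 in batch 6 (8 and 8). What else differed between rat batches was not given in the sources used here. The values are log2 of the read count per gene after upper quartile adjustment, plus 1. Adjusted counts summed to between 16957388 and 20613396 per library, and 2.02% to 5.66% of the genes in a library were at 0.

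Collagens and laminins form fibrils, sheets and membrane-bound meshes outside cells, and integrins bind cells to them. Secreted and membrane metalloproteinases cut matrix proteins, although several ADAM proteins of the brain have lost that activity and act as synaptic adhesion proteins. Cadherins, protocadherins, contactins and leucine-rich repeat proteins hold neurons together and pair both sides of a synapse. Semaphorins signal through plexins, ephrins through Eph receptors and Slits through Robo receptors, and these ligand and receptor families steer axons in development and adjust synapses in the adult cortex.

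Of the 62 genes, 59 had at least 1 adjusted count in all 80 rats and 55 had a mean log2 value of at least 5. *Col6a5*, a chain of type VI collagen, was at 0 in 10 rats, *Cdh26*, a cadherin of epithelia, in 18 rats and *Adamts16*, a secreted protease, in 1 rat. *Itgb3bp* encodes a nuclear protein that binds an integrin, not an integrin, and *Slitrk1* and *Slitrk3* encode synaptic adhesion proteins rather than Slits. They were kept because the rule goes by the name. *Pcdha4* and *Pcdhga3* belong to protocadherin clusters whose genes share constant exons, so their estimated counts are uncertain. None of the 62 had values identical to those of another gene.

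Log2 levels over the 80 rats are given for the members of each role with the lowest and the highest mean, as ranges of each gene on its own, because the values are not scaled by gene length. Of the collagens, *Col6a5* ran from 0 to 4.32 and *Col27a1* ran from 7.70 to 10.64. Of the integrins, *Itgb6* ran from 1.00 to 4.86 and *Itgb8* ran from 6.17 to 8.48. Of the cadherins, *Cdh26* ran from 0 to 3.17 and *Cdh18* ran from 9.93 to 10.64. The low end of these 3 families thus rested on few counts per rat. Of the protocadherins, *Pcdha4* ran from 4.70 to 6.85 and *Pcdh10* ran from 10.67 to 11.52. Of the metalloproteinases, *Adamts16* ran from 0 to 4.64 and *Adam11* ran from 12.35 to 13.01. *Adam11* varied within less than 1 log2 unit over the rats. Of the semaphorins, *Sema3e* ran from 6.74 to 8.53 and *Sema4f* ran from 10.58 to 11.15. Of the plexins, *Plxnd1* ran from 8.82 to 9.84 and *Plxnb1* ran from 9.69 to 10.85. Of the ephrin family, *Efna1* ran from 4.32 to 6.46 and *Epha7* ran from 9.12 to 9.96. *Efna1* had as few as 19 adjusted counts in a rat, while each semaphorin and plexin had at least 106 in all 80 rats. Of the contactins, *Cntn6* ran from 7.96 to 9.01 and *Cntn4* ran from 9.79 to 10.72. Of the leucine-rich repeat group, *Lrrtm4* ran from 8.93 to 9.57 and *Slit1* ran from 10.62 to 11.48.

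The main pattern across the rats was a difference between rat batches. Batches 4 and 6 were set against batches 2 and 3, on the mean log2 value with sex as a covariate. This division was chosen with earlier results of these data known, so the counts and p-values of the contrast describe these same data. The difference was positive and passed an adjusted p of 0.05 (limma, Benjamini-Hochberg over all 17250 genes) for 32 of the 62 genes (51.6%) and was negative for 4 (6.45%) (2 genes were called lower without batch 3, and 2 without batch 4). With each of batches 2, 3, 4 and 6 left out in turn, all 36 kept their sign, 21 of the 32 higher genes kept their call each time, and none of the 4 lower genes did. Over all genes, 28.8% were called higher and 26.6% lower in the same contrast. The median difference was 0.20 for the 62 genes and 0.01 for all genes. With limma's F-test over the batches, 38 of the 62 (61.3%) differed, against 62.4% of all genes. Among genes with a mean log2 value of at least 5, 35 of 55 (63.6%) differed, against 73.6% of all such genes. The genes thus differed between batches about as often as all genes did, and less often at such means. More of them differed in the direction of batches 4 and 6.

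**Figure D1:**
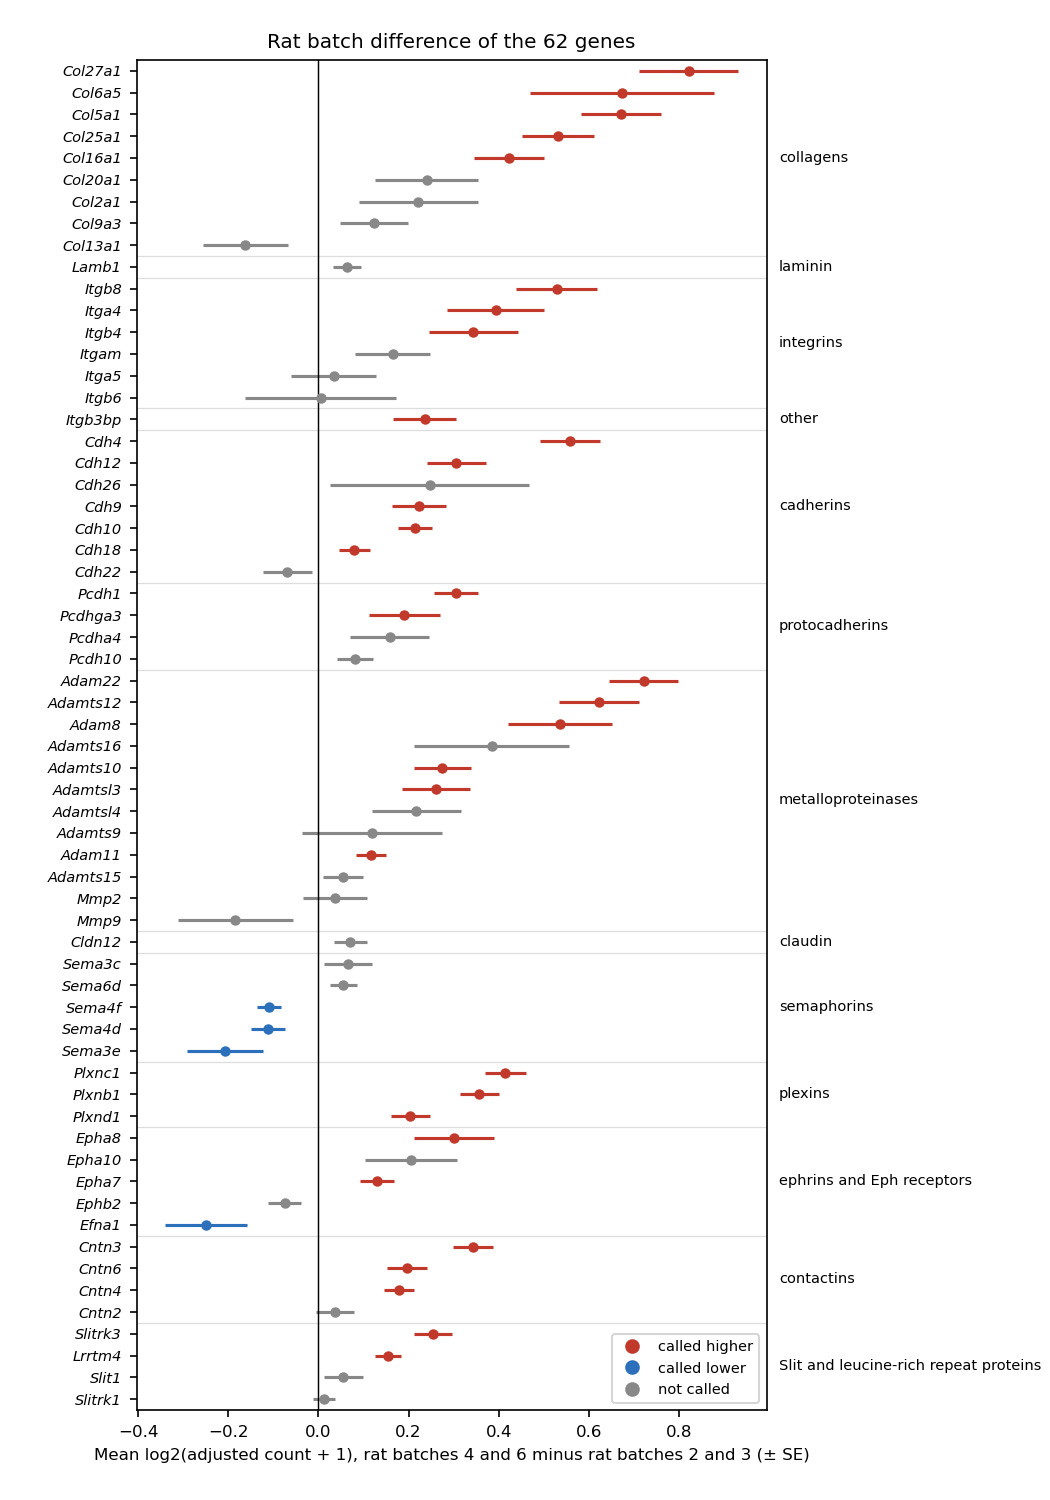
The horizontal axis is the difference in mean log2(adjusted count + 1) between rat batches 4 and 6 and rat batches 2 and 3, with sex as a covariate, for each of the 62 genes by role. Points are estimates and bars are 1 SE. The 32 genes called higher are in red, the 4 called lower in blue and the 26 not called in grey.

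Among the receptors of semaphorins, all 3 plexins were higher in batches 4 and 6. *Plxnc1*, a receptor of semaphorin 7A, had a lowest, median and highest value of 9.45, 9.76 and 10.10 in batch 2, and of 9.22, 9.77 and 10.33 in batch 3. In batch 4 these were 10.01, 10.23 and 10.50, and in batch 6 they were 9.96, 10.16 and 10.35. The highest rats of batches 2 and 3 reached into the range of batches 4 and 6, so the sides overlapped. The difference was 0.41 ± 0.05 (SE, adjusted p = 2.76e-12, limma), which is 1.33-fold. *Plxnb1*, the receptor of semaphorin 4D, differed by 0.36 ± 0.04 (adjusted p = 5.23e-11), and *Plxnd1*, the receptor of semaphorin 3E, by 0.20 ± 0.04 (adjusted p = 4.29e-05), or by 0.13 without batch 6.

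Of the 5 semaphorins, none was called higher and 3 were called lower, and all 5 passed the F-test over batches. *Sema4f*, a transmembrane semaphorin, differed by −0.11 ± 0.03 (adjusted p = 0.000337), with medians of 10.98, 11.04, 10.82 and 10.94 in batches 2, 3, 4 and 6. *Sema4d* differed by −0.11 ± 0.04 (adjusted p = 0.0099). *Sema3e* differed by −0.21 ± 0.08 (adjusted p = 0.0291). Its medians in batches 2, 3, 4 and 6 were 7.84, 7.50, 7.54 and 7.49, with batch 2 above the rest. Without batch 2 the *Sema3e* difference was −0.03 (adjusted p = 0.788) and that of *Sema4d* was −0.05 (adjusted p = 0.37), and without batch 4 the *Sema4f* difference was −0.03 (adjusted p = 0.394), so none of these calls held without every batch. *Sema3c* and *Sema6d* had positive differences, of 0.07 ± 0.05 and 0.06 ± 0.03, that were not called. Both were called higher without batch 2, with 0.16 (adjusted p = 0.0172, limma) and 0.13 (adjusted p = 0.000395). *Sema3c* was also called higher without batch 6 (0.16, adjusted p = 0.0249).

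Of the ephrin family, the ligand *Efna1* differed by −0.25 ± 0.09 (adjusted p = 0.0161), but not without batch 3 (adjusted p = 0.13) and not in the F-test over batches (adjusted p = 0.0962). It was a low gene, with a median of 40.0 adjusted counts, and its median log2 values in batches 2, 3, 4 and 6 were 5.60, 5.49, 5.27 and 5.32. The receptors *Epha8* (0.30 ± 0.09, adjusted p = 0.0027) and *Epha7* (0.13 ± 0.04, adjusted p = 0.00249) were higher in batches 4 and 6. The *Epha8* call was lost without batch 3 (0.14, adjusted p = 0.387) and without batch 6 (adjusted p = 0.0667). The differences of *Epha10* (0.21 ± 0.10) and *Ephb2* (−0.08 ± 0.04) did not pass the test. *Epha10* was called higher without batch 3 (0.34, adjusted p = 0.0366, limma). *Ephb2* was called lower without batch 2 (adjusted p = 0.0354) and with libraries centred on their median (adjusted p = 0.0345). Both were also called after a rank-based inverse normal transformation (adjusted p = 0.0398 and 0.0403).

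Of the metalloproteinases, 6 of 12 were called higher and none lower. The gene with the smallest p for the contrast among the 62 was *Adam22*, which encodes a catalytically inactive ADAM that binds the secreted protein LGI1 at synapses. Its lowest, median and highest values were 7.86, 8.52 and 9.55 in batch 2 and 7.98, 8.64 and 9.74 in batch 3. They were 8.86, 9.43 and 9.80 for batch 4 and 8.71, 9.33 and 9.62 for batch 6. The middle of batches 4 and 6 lay above that of batches 2 and 3, and the highest rats of batches 2 and 3 reached it. The difference was 0.72 ± 0.08 (adjusted p = 5.56e-13, limma), or 1.65-fold. The secreted protease *Adamts12* was 0.62 ± 0.09 higher (adjusted p = 7.84e-09), *Adam8*, a protease of leukocytes, 0.54 ± 0.12 (adjusted p = 4.88e-05), and *Adam11*, another catalytically inactive ADAM of neurons, 0.12 ± 0.03 (adjusted p = 0.00161). Without batch 6 the *Adam11* difference was 0.03 (adjusted p = 0.578), without batch 4 it was 0.20, and without batch 3 its adjusted p was 0.133. The *Adam8* call was lost without batch 3 (adjusted p = 0.0867) and without batch 6 (adjusted p = 0.0612), with differences of 0.34 and 0.30. *Adamts10*, a protease of microfibrils (0.27 ± 0.06), and *Adamtsl3*, an ADAMTS-like protein without a protease domain (0.26 ± 0.07), were the others called. *Adamts10* had 0.17 without batch 6 (adjusted p = 0.0531), and *Adamtsl3* had an adjusted p of 0.109 without batch 3. The gelatinases *Mmp2* (0.04 ± 0.07) and *Mmp9* (−0.18 ± 0.13) were not called.

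Of the 9 collagens, 5 were called higher and none lower, and their median difference was 0.42. *Col27a1*, a fibrillar collagen, was 0.82 ± 0.11 higher (adjusted p = 8.3e-10), or 1.77-fold. Its medians were 9.15 and 9.04 in batches 2 and 3, and 9.71 and 10.07 in batches 4 and 6. *Col5a1*, a chain of fibrillar type V collagen, had medians of 8.87, 8.64, 9.31 and 9.64 in batches 2, 3, 4 and 6, with values from 8.18 to 9.37 in batches 2 and 3 together and from 8.41 to 10.07 in batch 4. Its difference was 0.67 ± 0.09 (adjusted p = 7.51e-10). *Col25a1*, a transmembrane collagen of neurons (0.53 ± 0.08), *Col16a1*, a fibril-associated collagen (0.42 ± 0.08), and the low *Col6a5* (0.67 ± 0.21) were also called. *Col16a1* had 0.22 without batch 6, and *Col6a5* was not called without batch 3 (adjusted p = 0.151) or without batch 6 (0.33, adjusted p = 0.208). *Col9a3*, *Col20a1*, *Col2a1* and *Col13a1* were not, with differences from 0.24 in *Col20a1* to −0.16 in *Col13a1*. The laminin chain *Lamb1* had 0.06 ± 0.03 and was not called.

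**Figure D2:**
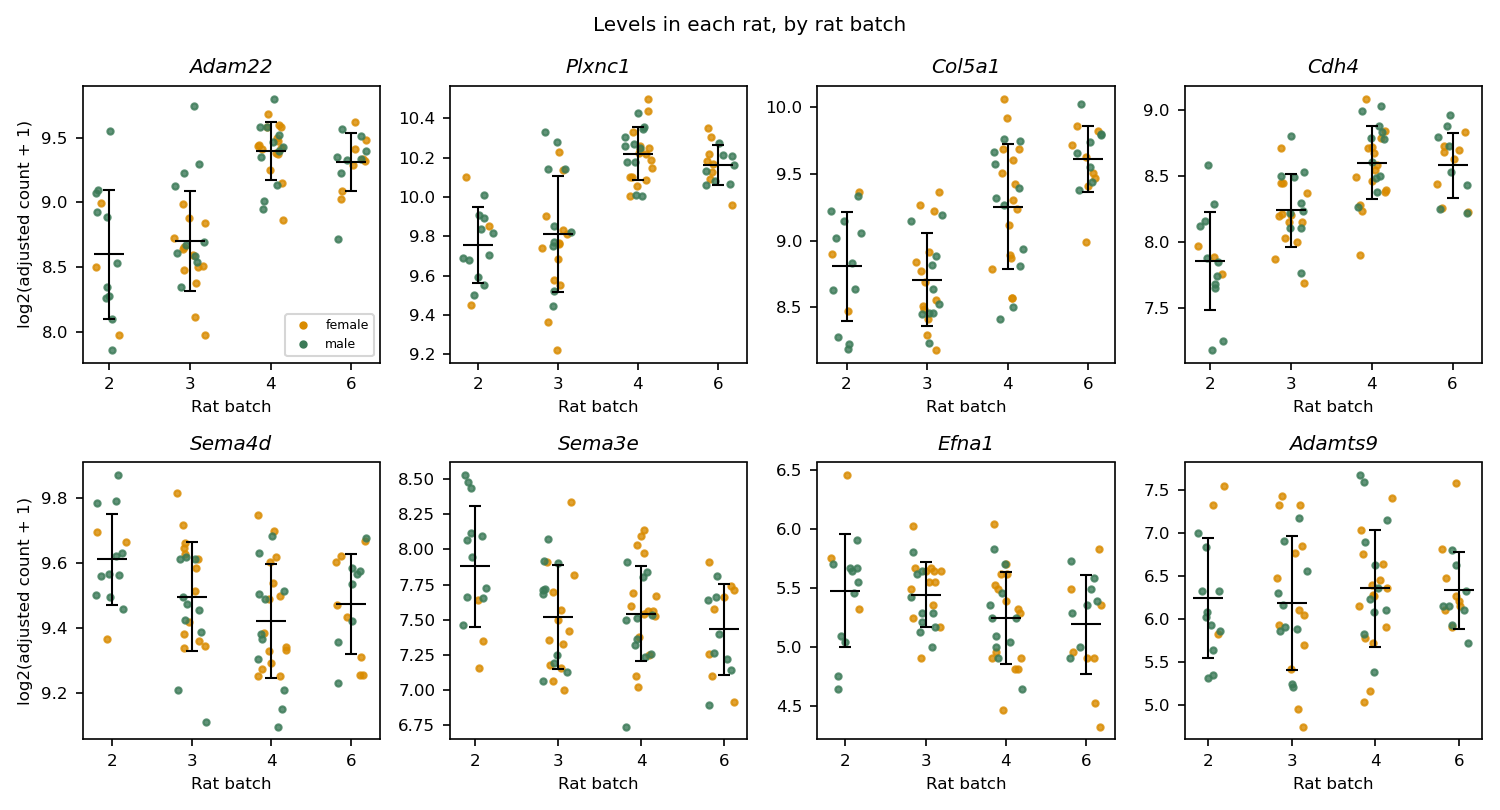
The vertical axes show log2(adjusted count + 1) and the horizontal axes the rat batch for 8 genes, with 1 point per rat (females in orange, males in green) and black bars for the mean and SD of each batch. In *Adam22*, *Plxnc1*, *Col5a1* and *Cdh4* the means of batches 4 and 6 lie above those of batches 2 and 3 with overlapping points. In *Sema3e* batch 2 stands above the other batches, and in *Adamts9* the batches have similar means and a wide spread.

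Integrin and cadherin genes followed the same direction where they were called. *Itgb8*, a beta chain that activates latent TGF-beta, was 0.53 ± 0.09 higher (adjusted p = 5.53e-07), and *Itga4* and *Itgb4* were also called, while *Itgam*, *Itga5* (0.03 ± 0.09), which encodes the alpha chain of the fibronectin receptor, and *Itgb6* were not. Of the 7 cadherins 5 were called higher. *Cdh4*, which encodes R-cadherin, rose from medians of 7.86 and 8.21 in batches 2 and 3 to 8.60 and 8.66 in batches 4 and 6, a difference of 0.56 ± 0.07 (adjusted p = 3.35e-11) that was 0.35 without batch 2 and 0.76 without batch 3. The 4 type II cadherins *Cdh9*, *Cdh10*, *Cdh12* and *Cdh18* differed by 0.08 to 0.31, and all passed the test. Of these, *Cdh10* alone was called with any one batch left out. *Cdh18*, with an adjusted p of 0.0449, was not called without batch 3 (0.508), without batch 4 (0.364) or with libraries centred on their median (0.113), the values in brackets being adjusted p-values. *Cdh9* was not called without batch 3 (adjusted p = 0.136), and *Cdh12* was not called without batch 4 (0.19, adjusted p = 0.0589). *Cdh22*, of the same type, had −0.07 ± 0.05 and was not called. Of the 4 protocadherins, *Pcdh1* (0.31 ± 0.05) and *Pcdhga3* (0.19 ± 0.08) were called, while *Pcdh10* (0.08 ± 0.04) and *Pcdha4* (0.16 ± 0.09) were not. *Pcdh1* had 0.19 without batch 4. *Pcdhga3* was not called without batch 2, 3 or 4 (adjusted p = 0.104, 0.184 and 0.356) or with centred libraries (adjusted p = 0.053).

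Of the contactins, which are immunoglobulin proteins held at the neuronal membrane by a lipid anchor, *Cntn3* was 0.34 ± 0.04 higher (adjusted p = 3.23e-10), *Cntn6* 0.20 ± 0.04 and *Cntn4* 0.18 ± 0.03, while *Cntn2* differed by 0.04 ± 0.04 and was not called. Of the leucine-rich repeat group, *Slitrk3* (0.25 ± 0.04, adjusted p = 3.02e-07) and *Lrrtm4* (0.15 ± 0.03, adjusted p = 6.55e-06) were called. *Slit1*, the secreted ligand of Robo receptors, had 0.05 ± 0.04 and *Slitrk1* 0.01 ± 0.03. *Itgb3bp* was 0.24 ± 0.07 higher, and 0.12 without batch 2 (adjusted p = 0.193). The claudin *Cldn12* had 0.07 ± 0.04 and was not called.

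The batch difference moved with gene span across the named genes, and many of the 62 genes are long. Span, introns included, was taken by symbol from RefSeq on the GRCr8 assembly and found for 2950 of the 3292 named genes and for all 62. The median span was 91.8 kb for the 62 genes and 28.8 kb for the named genes, and Spearman's rho between span and the batch difference was 0.40 across the 2950 genes and 0.18 across the 62. Genes are not independent replicates, and these values have no p. The named genes were put in order of span and divided into 4 bins of equal size. In the bin of shortest genes 9.14% of the other genes were called higher and 47.5% lower, and in the bin of longest genes 51.5% were called higher and 14.5% lower. The 62 genes fell 5, 10, 14 and 33 to the bins from short to long, with 0, 5, 6 and 21 called higher. Their median difference was 0.01, 0.12, 0.23 and 0.20 in these bins, against −0.10, −0.04, 0.05 and 0.11 for the other named genes. The part of gene span in the batch difference of these genes was not tested.

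**Figure D3:**
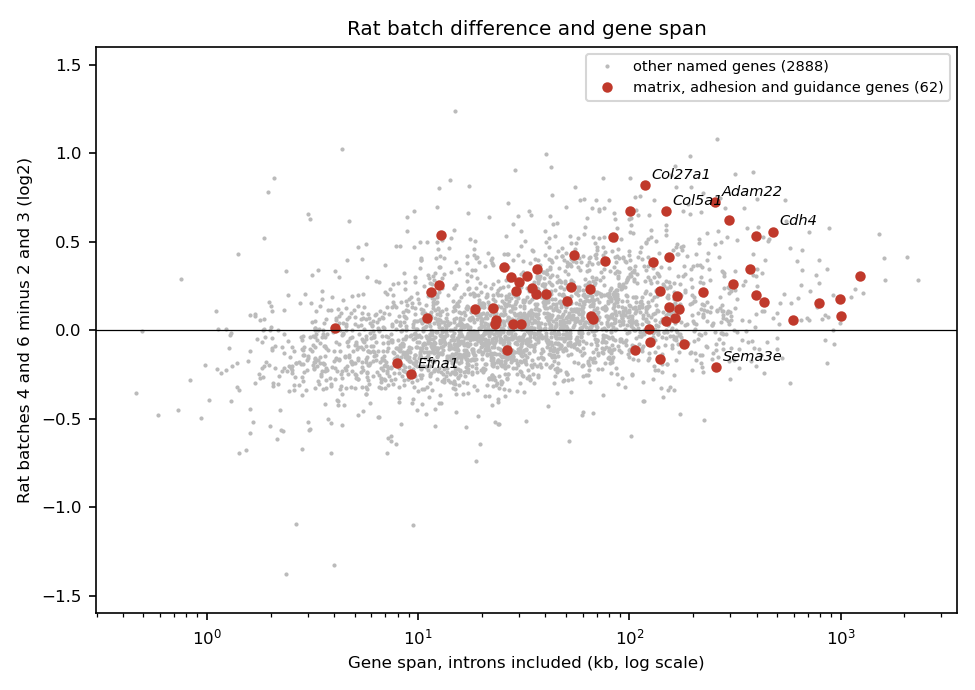
The horizontal axis is gene span in kb on a log scale and the vertical axis the difference between rat batches 4 and 6 and rat batches 2 and 3 in log2 units, for 2888 other named genes in grey and the 62 genes in red. The cloud rises with span, and the 62 genes lie mostly among the long genes. The number of genes beyond the plotted vertical range is 1.

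Cell composition was checked with the few markers that could be named. Of the lists for 10 cell types, 7 markers had an identifier, and no list had 3. Between the sides, *Rgs5* of mural cells differed by 0.27 ± 0.05, *Dcn* of fibroblasts by 0.26 ± 0.08, *P2ry12* of microglia by 0.27 ± 0.06, *Vwf* of endothelium by 0.11 ± 0.05 and *C1qa* of microglia by −0.19 ± 0.05, and all 5 passed the test. *Aldh1l1* of astrocytes (−0.08 ± 0.05) and the globin *Hbb* (−0.34 ± 0.17) did not. In bulk tissue fewer cells of a type and less RNA per cell cannot be told apart, and the part of cell composition in the batch differences was not tested. No neuronal marker had an identifier, so the labelled tissue was not checked against one.

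Males and females were next compared with rat batch as a factor. None of the 62 genes passed the adjusted threshold in limma, 7 had an unadjusted p under 0.05, as did 1349 of all 17250 genes, and 63 of all genes (0.365%) were called. The differences were higher in males for 38 genes and higher in females for 24, with a median of 0.02, against 8800 and 8450 of all genes. The smallest p was that of *Slitrk1*, a synaptic adhesion gene, with 10.74, 11.04 and 11.23 as lowest, median and highest value in males and 10.74, 10.94 and 11.21 in females. The difference was 0.08 ± 0.03 (adjusted p = 0.153), and the ranges were almost the same. *Epha10* had a difference of 0.30 ± 0.10 (adjusted p = 0.277), *Itgb4* 0.27 ± 0.10 (adjusted p = 0.332), *Slitrk3* 0.10 ± 0.04 (adjusted p = 0.543) and *Itgb3bp* 0.15 ± 0.07 (adjusted p = 0.589), all toward males.

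Whether the batch difference itself differed between the sexes was tested with an interaction term. No gene of the table passed the adjusted threshold in limma, and 5 of the 62 had an unadjusted p under 0.05, namely *Pcdhga3*, *Sema3e*, *Mmp9*, *Efna1* and *Cntn6* (named after their values were seen). The share of all genes with such an unadjusted p was not computed, so the count of 5 has no background to be read against. The smallest adjusted p of the 62 was 1.00. In males alone the *Sema3e* difference between batches was −0.37 (adjusted p = 0.00451), and in females alone it was 0.11 (adjusted p = 0.551). For *Efna1* the values were −0.08 (adjusted p = 0.601) in males and −0.53 (adjusted p = 0.00844) in females. *Pcdhga3*, called higher over all rats, had −0.03 (adjusted p = 0.845) in males and 0.46 (adjusted p = 0.00265) in females. Because no interaction was called, a call in 1 sex alone does not show that the sexes differed. Batch 2 held 3 females, so the values in females alone rest on few rats there.

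The spread between rats was wide for some of the genes once rat batch and sex had been removed. It was set against the spread that limma's trend gives genes of the same mean, and the median ratio was 1.18 for the 62 genes and 1.04 for all genes. These genes were picked for levels that follow genotype, so the ratios are a description. They were largest for *Col27a1* (3.31), *Col5a1* (2.52), *Epha10* (2.18), *Adam22* (2.14) and *Adamts9* (2.14). *Adamts9*, a secreted protease of proteoglycans, had levels from 4.75 to 7.67 with a median of 6.19 and differed neither between batches (adjusted p = 0.845 in the F-test) nor between sexes (adjusted p = 0.958). The smallest ratios were those of *Lrrtm4* (0.83), *Adamts15* (0.88) and *Ephb2* (0.89), whose values ran from 8.93 to 9.57, from 7.31 to 8.12 and from 8.05 to 8.93.

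Pairs of genes were then compared across the 79 rats of batches 2, 3, 4 and 6, after removal of batch and sex means. They were ligands and receptors, paralogs, neighbours on a chromosome, and genes of 1 cell type. Of 12 pairs, 5 had an adjusted p under 0.05 (permutation within rat batches, two-sided, Benjamini-Hochberg over the 12). By the same test, 274 of all 1891 pairs of the 62 genes passed when adjusted over the 1891 (218 positive and 56 negative). The test was not run on pairs of all genes, so these counts have no background to be read against. *Slitrk1* and *Slitrk3* had Pearson's r = 0.55 and Spearman's rho = 0.54 (adjusted permutation p = 0.00012), and r within batches 2, 3, 4 and 6 was 0.61, 0.50, 0.62 and 0.37. The pair of type II cadherins *Cdh12* and *Cdh18* had r = 0.39 and rho = 0.40 (adjusted permutation p = 0.00148), with 0.37, 0.67, 0.21 and 0.31 within batches, and *Cdh9* and *Cdh10* had r = 0.28 and rho = 0.28 (adjusted permutation p = 0.0339), with 0.33, 0.40, 0.20 and 0.30.

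The other pairs past the threshold were negative. *Itgam*, the alpha chain of a myeloid integrin, and *Adam8* had r = −0.41 and rho = −0.40 (adjusted permutation p = 0.00126), with −0.32, −0.51, −0.45 and −0.18 within batches. *Sema3c* and *Plxnd1*, a secreted semaphorin and a plexin of its receptor complexes, had r = −0.37 and rho = −0.37 (adjusted permutation p = 0.00366), with −0.14, −0.56, −0.22 and −0.46. Without the 2 rats farthest from the median on the first gene, r was 0.54, 0.34, 0.30, −0.34 and −0.37 for these 5 pairs in the order given. Within batch 3, 4 of these pairs were past the threshold, all but *Cdh9* with *Cdh10*. Within batch 4 there was 1, *Slitrk1* with *Slitrk3*, and within batches 2 and 6 there were 0. In each of the 5 pairs but *Slitrk1* with *Slitrk3*, both genes lie on the same chromosome. The part of shared genotype in these correlations was not tested.

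Of the other ligand and receptor pairs, *Sema4d* and *Plxnb1* had r = 0.24 (adjusted permutation p = 0.0653, and 0.0315 for rho = 0.28), *Sema3e* and *Plxnd1* −0.17 (0.211), *Efna1* and *Epha7* −0.09 (0.495) and *Efna1* and *Epha8* −0.02 (0.876), the values in brackets being adjusted permutation p-values. *Adam22* and *Adam11*, which are related in sequence and both bind LGI proteins, had r = −0.13 (adjusted permutation p = 0.337). *Cntn4* and *Cntn6* had 0.13 and *Mmp2* and *Col5a1* −0.21, neither past the threshold.

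Over all 1891 pairs of the 62 genes, 64 (3.38%) had r of at least 0.5 and 2 (0.106%) had r of −0.5 or below. Among the 55 with a mean of at least 5 the shares were 4.04% and 0.135% of 1485 pairs, against 3.39% and 2.51% of all pairs of genes with such a mean. The share of strong positive pairs was thus near that of all genes, and that of strong negative pairs was lower. The 2 negative pairs were *Sema3c* with *Sema4f* (r = −0.58) and *Cdh9* with *Epha8* (r = −0.52).

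The pairs with r of at least 0.7, a bound chosen after the values were seen, numbered 19 and joined 14 genes into 3 sets. The first held *Col5a1*, *Col27a1*, *Col16a1*, *Adam8*, *Adam11* and *Adamts10*, with r from 0.65 to 0.83 over its 15 pairs. *Col5a1* and *Col27a1* had the highest r, 0.83, and within batches 2, 3, 4 and 6 it was 0.86, 0.79, 0.87 and 0.78. The second held *Col25a1*, *Itgb8*, *Pcdh1*, *Pcdh10*, *Adam22* and *Plxnc1*, with r from 0.50 to 0.76 over 15 pairs. The median r within batches was 0.83, 0.70, 0.81 and 0.65 in the first set and 0.80, 0.75, 0.44 and 0.43 in the second. The third was *Cdh12* with *Cntn4* (r = 0.72). Between the first and second sets r ran from −0.34 to 0.25 over 36 pairs, so that *Adam11* and *Adam22*, or *Col5a1* and *Col25a1*, fell in different sets. These values are a description of the same rats on which the sets were found.

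**Figure D4:**
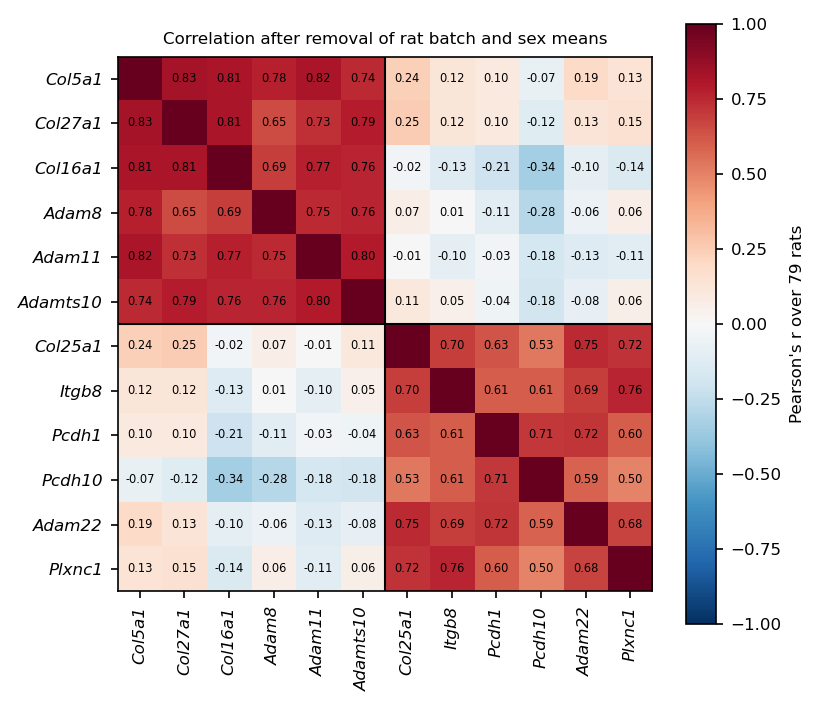
Each cell gives Pearson's r of 2 genes over 79 rats after removal of rat batch and sex means, with red for positive and blue for negative values. The 6 genes of the first set (upper left) and the 6 of the second (lower right) have r from 0.65 to 0.83 and from 0.50 to 0.76, while the cells between the sets lie between −0.34 and 0.25.

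The means of both sets were also followed from batch to batch. In the first set the mean rose from batch 4 to batch 6 in all 6 genes, by 0.17 in *Adam11* to 0.45 in *Adam8*, after a rise from the mean of batches 2 and 3 to batch 4 of 0.04 in *Adam11* to 0.61 in *Col27a1*. In the second set it changed from batch 4 to batch 6 by −0.24 in *Pcdh1* to −0.01 in *Pcdh10*, after a rise to batch 4 of 0.08 in *Pcdh10* to 0.75 in *Adam22*, a range that overlaps that of the first set. The difference between the sets was not tested.

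**Figure D5:**
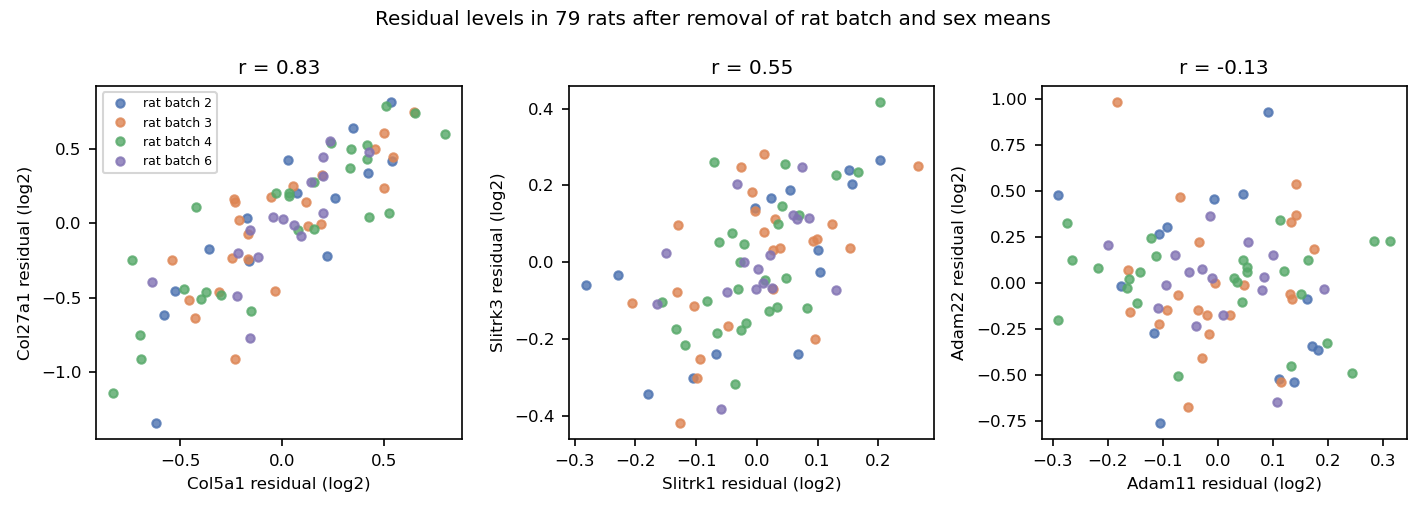
Each point is 1 of 79 rats, coloured by rat batch, and the axes give the log2 level of each gene after removal of rat batch and sex means. *Col5a1* and *Col27a1* rise together (r = 0.83), *Slitrk1* and *Slitrk3* do so less tightly (r = 0.55), and *Adam11* and *Adam22* show no clear relation (r = −0.13).

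Promoter sequence is shown for the pair with the highest r in the first set and for 2 genes of the second, as the windows in which sequence shared by genes that move together could be read. The 2 genes of the second set were not its pair with the highest r, which was *Itgb8* with *Plxnc1* (r = 0.76). RefSeq promoters on GRCr8 were matched by symbol to 48 of the 62 genes. The 250 bases before the transcription start are given 5′ to 3′ on the gene's strand, with matches to the GC box GGGCGG on either strand in capitals.
Col5a1, chr3:31606630-31606879, forward strand: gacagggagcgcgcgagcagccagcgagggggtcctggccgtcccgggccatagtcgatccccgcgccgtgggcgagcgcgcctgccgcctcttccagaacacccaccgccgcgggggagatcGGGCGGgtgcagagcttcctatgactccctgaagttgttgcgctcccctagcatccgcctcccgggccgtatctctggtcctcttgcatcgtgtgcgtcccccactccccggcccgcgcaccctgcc
Col27a1, chr5:81662658-81662907, forward strand: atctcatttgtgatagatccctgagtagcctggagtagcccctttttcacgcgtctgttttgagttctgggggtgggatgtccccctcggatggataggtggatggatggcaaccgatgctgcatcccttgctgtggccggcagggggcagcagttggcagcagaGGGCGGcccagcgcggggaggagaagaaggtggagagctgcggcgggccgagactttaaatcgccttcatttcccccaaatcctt
Adam22, chr4:26670862-26671111, forward strand: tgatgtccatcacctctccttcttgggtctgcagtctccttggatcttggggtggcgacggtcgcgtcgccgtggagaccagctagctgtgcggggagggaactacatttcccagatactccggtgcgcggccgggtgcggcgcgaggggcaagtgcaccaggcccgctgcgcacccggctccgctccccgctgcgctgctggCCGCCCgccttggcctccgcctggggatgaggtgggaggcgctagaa
Plxnc1, chr7:31430606-31430855, reverse strand: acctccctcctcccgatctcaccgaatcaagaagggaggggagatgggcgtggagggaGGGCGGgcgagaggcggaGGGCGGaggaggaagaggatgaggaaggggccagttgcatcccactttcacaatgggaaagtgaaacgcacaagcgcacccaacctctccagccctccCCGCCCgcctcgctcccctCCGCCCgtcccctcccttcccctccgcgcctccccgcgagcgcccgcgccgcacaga

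The GC box occurred once each in the *Col5a1*, *Col27a1* and *Adam22* windows and 4 times in the *Plxnc1* window. It was present in 25 of the 48 windows (52.1%) and in 33.6% of 24206 windows of the same length of all genes. The CCAAT box, searched as CCAAT on both strands, was in 27.1% and 34.4%, and the TATA box, searched as TATAAA, in 4.17% and 13.3%. The bases G and C made up 71.6% of the *Col5a1* window, 58.8% of *Col27a1*, 68.8% of *Adam22* and 68.8% of *Plxnc1*, with a median of 60.0% over the 48 windows and 52.4% over all windows. The *Itgb8* window, which is not shown, had 56.4% and 1 GC box.  A match is a description of the letters.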

How the data were processed

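PL RNA-Seq libraries of 80 HS rats, 1 per rat, were analysed. Of 86 labelled samples, 6 were marked as removed and were left out. The authors trimmed reads with cutadapt, aligned them to the rat transcriptome of Ensembl with RSEM to estimate gene counts (the processing notes name Rnor_6.0), applied an upper quartile adjustment in DESeq2, filtered samples and genes, and deposited the log2 of each adjusted count plus 1. Undoing the logarithm gave whole numbers for 100% of the values, within 0.1% of the count. For high counts that tolerance covers every value between whole numbers, so the check says nothing about them. Tool versions were not given in the sources used here. The values are not scaled by gene length, so levels were not compared between genes, and adjusted values were not given to a count test.

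Sex (with rat batch as a factor), rat batch (F-test, with sex), the contrast of batches 4 and 6 with 2 and 3 (with sex) and its interaction with sex were fitted over all 17250 genes with limma 3.58.1 in R 4.3.3 (eBayes with a variance trend), and Benjamini-Hochberg adjusted p-values under 0.05 were called. The single batch 5 rat entered the fits with its own term and no contrast or correlation. Correlations of residuals used 100000 permutations of rats within batches, with 1e-05 as the smallest p these can give, computed in numpy 2.4.6 under Python 3.11.15, and tables were handled in pandas 2.3.3. The scripts were tested on simulated data. Kinship between rats was not modelled.

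The genes, lists, pairs and contrasts were chosen with earlier results of these data known. Named in full were the 5 genes of lowest p between the sexes, the 6 of lowest p in each direction between the batches, the extremes of residual spread and of mean level in a role, genes with an eQTL in PL alone and the fixed pairs. *Col27a1*, *Adamts12*, *Adam8*, *Itgb8* and *Cdh22* are among the genes named beyond that rule, to describe each role. The lists of the wider gene families were not used, because the files' identifiers could be named only through the study's lists, and marker scores were not computed, because no list had 3 markers. Span bins, single markers, all pairs and the r bound were added after seeing the data.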

Additional observations from a re-analysis of the deposited data

How the results depend on the processing

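The number of genes called higher in rat batches 4 and 6 ran from 24 to 36, and of genes that differed between batches from 27 to 42, over 13 alternatives for pseudocount, filter, centring, transformation, variance trend, covariates, batches and sexes. The number called lower, 4 in the report, was 2 without rat batch 3, 2 without rat batch 4, 2 in males alone and 2 in females alone. It was 3 without rat batch 6, and 5 with libraries centred on their median and with a rank-based inverse normal transformation. With libraries centred on their median, all genes split into 4612 higher and 4967 lower, against 4966 and 4587 as reported. *Adam22*, *Plxnc1*, *Plxnb1*, *Cdh4*, *Cntn3* and *Col5a1* kept their call under all 13. *Sema3e* reversed in females alone (0.11) and *Pcdhga3* in males alone (−0.03). None of the 62 genes was called for sex under 11 alternatives, or for the interaction under 2. Fixed pairs past the threshold numbered 5, and 0 within rat batch 2, 4 within rat batch 3, 1 within rat batch 4 and 0 within rat batch 6. Pairs not past the threshold changed sign in places. *Efna1* with *Epha8* was 0.043 without the 2 farthest rats, 0.13 in batch 2 and 0.049 in batch 6. *Efna1* with *Epha7* was 0.047 in batch 3 and 0.080 in batch 6. *Cntn4* with *Cntn6* was −0.0038 without the 2 farthest rats and −0.47 in batch 2. *Sema3e* with *Plxnd1* was 0.29 in batch 2, *Adam22* with *Adam11* 0.021 in batch 3 and *Mmp2* with *Col5a1* 0.079 in batch 4. The cause of these changes was not tested.

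Correlation with marker scores was not run, because no list had 3 markers with an identifier. Rat batch and sex were unevenly mixed in batch 2, with 3 females. Genes with a mean log2 value under 5 rest on few reads per library. Whatever else differed between rat batches cannot be told apart from batch. No paired analysis was possible within these data, because each rat gave 1 PL library and replicate numbers were assigned in order. The study's other brain regions were not analysed here.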

Other observations

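Single markers were compared with the 62 genes across the 79 rats, after removal of rat batch and sex means, in 434 relations (chosen after seeing the data, permutation within rat batches, Benjamini-Hochberg over all 434). *Rgs5*, which marks the mural cells of small vessels, had a positive correlation past the threshold with 7 genes, among them *Pcdh1* (r = 0.50, rho = 0.41, adjusted permutation p = 0.00434) and *Adam22* (r = 0.48, rho = 0.48, adjusted permutation p = 0.00868). Without the 2 farthest rats r was 0.41 and 0.44. Within batches 2, 3, 4 and 6 it was 0.91, 0.48, −0.12 and 0.51 for *Pcdh1* and 0.83, 0.41, 0.00 and 0.56 for *Adam22*, so neither relation was seen in batch 4. *Pcdh10* (0.38) and *Itgb8* (0.37), of the same set of genes that moved together, were also among the 7. *Vwf*, of the endothelium, had a positive correlation with *Col13a1* (r = 0.38) and *Plxnd1* (r = 0.37), a receptor known for its role in vessels. *C1qa*, of microglia, had a negative one with *Sema6d* (r = −0.39), *Col5a1* (r = −0.38) and *Cldn12* (r = −0.36). *Aldh1l1*, *P2ry12*, *Dcn* and *Hbb* had none past the threshold. The share of all genes past the threshold with each marker was not computed, so these counts have no background to be read against. The part of cell composition in these correlations was not tested.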
